A study of Enchytraeus crypticus with 60 samples.

Results

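Ag NM300K is a reference silver nanomaterial supplied in a dispersant. Its effect on gene expression after 7 d in soil was followed here in the soil worm *Enchytraeus crypticus*, on 9 arrays of the 60 in the series. They comprised 3 arrays at the concentration that lowers reproduction by 20% (EC20), 3 at the concentration that lowers it by 50% (EC50), and 3 of CTdisp, which is LUFA 2.2 soil mixed with the dispersant (Tween 20) and no silver. All 9 held total RNA of adult worms with a clitellum, extracted from whole bodies, and each array held 1 pool of 20 worms. The members were chosen by their labels alone. A pool of whole bodies is a limit of the model, since a change in the number of cells of a type and a change in RNA per cell cannot be told apart. The series' design text calls the 3 arrays of a group biological replicates.

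Silver that leaves a particle as an ion binds the sulfur groups of proteins, and silver in soil is known to be toxic to invertebrates and microbes. *E. crypticus* is an enchytraeid oligochaete used in standard soil tests, where the effect on the number of offspring sets the concentrations. A dispersant keeps the particles apart, and the control of Ag NM300K carries it too. The files name each probe only by an assembled contig or by 1 sequencing read of this species, so that no gene name, role or sequence is given to any probe here.

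Each array had 43750 gene probes, of which 23179 (53.0%) lay significantly above background on all 60 arrays, by the scanner software's flag, and were tested. On the 9 arrays the median processed signal lay between 15.4 and 21.8, between 74.3% and 86.7% of gene probes were above background, and no gene spot was saturated. Across probes, Pearson's r between log2 signals was 0.975 to 0.990 for arrays within a group and 0.964 to 0.991 for arrays from different groups. The spread between arrays of a group was thus about as large as that between groups, and the median standard deviation of a probe over 3 arrays was 0.26 in CTdisp, 0.20 at EC20 and 0.25 at EC50 on the log2 scale. CTdisp replicate 1 and EC50 replicate 2 lay on 1 slide, and CTdisp replicate 2 and EC20 replicate 3 on another. The arrays were scanned on 3 days. The first held CTdisp replicate 1, EC20 replicate 1 and EC50 replicates 1 and 2. A later one held CTdisp replicate 2, EC20 replicates 2 and 3 and EC50 replicate 3. Of the 9 arrays, the remaining day held CTdisp replicate 3 alone, so differences within a scan day leave that array out.

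The first question was which probes Ag NM300K changed at EC20. Against CTdisp, 69 of the 23179 probes (0.298%) were differentially expressed (DEGs, limma with a false discovery rate below 5%), of which 29 (0.125%) were over-expressed and 40 (0.173%) under-expressed. The median log2 fold change was 1.05 among the over-expressed and -1.15 among the under-expressed DEGs, with a largest size of 3.05 and -3.95, and 47 of the 69 changed by more than 2-fold. Over all probes the median log2 fold change was 0.02, and between 0.01 and 0.04 after Median, Quantile and 75th percentile scaling. It was 0.17 after scaling to spike-in RNA, -0.05 after MedianCD normalization and -0.07 after a normexp background correction. All 69 DEGs had arrays that did not overlap between the groups, as had 10.7% of all probes in the higher and 9.89% in the lower direction. Leaving out CTdisp replicate 2 left 0 DEGs (limma, 1895 at an unadjusted p below 5%). The count was 10, 22 and 41 without EC20 replicates 1, 2 and 3, of which 0%, 68.2% and 46.3% were over-expressed. It was 42 and 54 without CTdisp replicates 1 and 3, of which 7.14% and 85.2% were over-expressed. With slide as a fixed block it was 478 and with scan day as a block 266, with over-expressed shares of 57.1% and 63.9% against 42.0% without a block. Other scalings moved the split as well, from 19.7% over-expressed among 71 DEGs after MedianCD normalization to 92.4% among 145 after scaling to spike-in RNA, and it was 11.1% of 9 after a normexp background correction. These scalings are described with the EC50 counts.

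The over-expressed DEGs with the largest change at EC20 are given first, as log2 signal after normalization in replicates 1, 2 and 3. Probe CUST_24211_PI427420766_b (read GYUW2K401DLQ92) had 4.95, 4.60 and 4.60 in CTdisp and 7.79, 8.01 and 7.50 at EC20. Probe CUST_76070_PI427420766_b (read GYUW2K402IM70Z) had 4.46, 5.01 and 5.87 in CTdisp and 8.06, 7.94 and 8.17 at EC20. In both probes every EC20 array lay more than 2 log2 units above every control array. The log2 fold change was 3.05 with a standard error of 0.68 for CUST_24211_PI427420766_b (FDR = 0.0317), and 2.94 with a standard error of 0.55 for CUST_76070_PI427420766_b (FDR = 0.0128). After normexp background correction they were 1.74 (FDR = 0.195) and 1.76 (FDR = 0.0172).

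Among the under-expressed DEGs, CUST_31050_PI427420766_b (read GYUW2K401DLXG6) had 12.88, 13.60 and 14.14 in CTdisp and 9.84, 9.25 and 9.68 at EC20. Probe CUST_10235_PI427420766_b (contig20094) had 8.89, 10.14 and 9.46 in CTdisp and 7.16, 6.25 and 5.41 at EC20. The former is a bright probe in the control that lost most of its signal, and the latter varied more between the treated arrays. Their log2 fold changes were -3.95 (standard error 0.83, FDR = 0.0235) and -3.22 (standard error 0.62, FDR = 0.0135), which are 15.5-fold and 9.35-fold decreases. No EC20 array of either probe reached a control array, but the rule for named probes required this, so nothing is read from it. Within the first and the later scan day the differences were -3.05 and -4.14 for CUST_31050_PI427420766_b and -1.73 and -4.31 for CUST_10235_PI427420766_b.

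**Figure D1:**
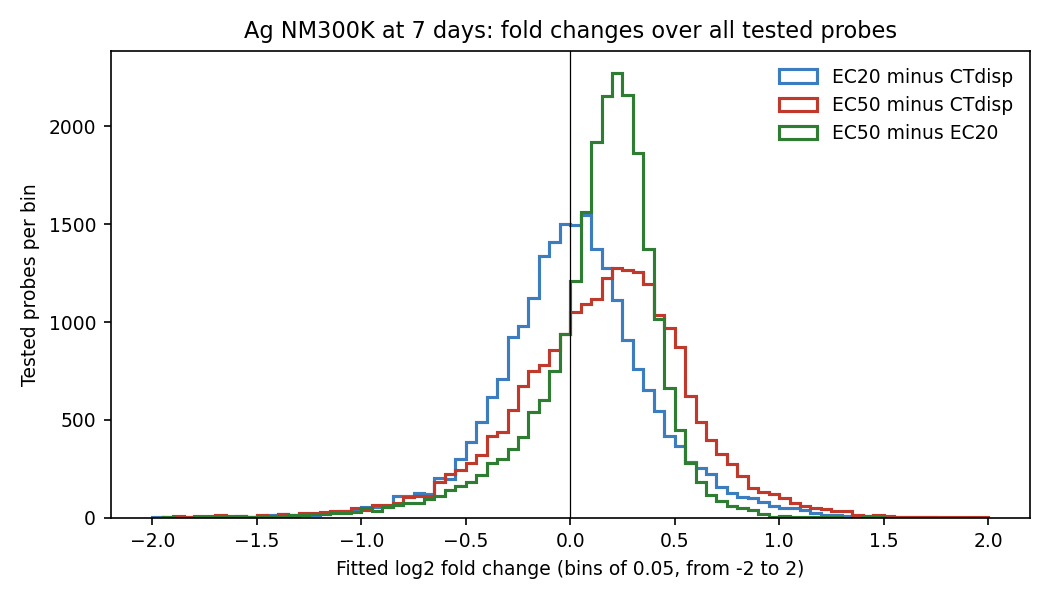
Histogram of fitted log2 fold changes (x axis, bins of 0.05 between -2 and 2) over the 23179 tested probes (y axis, probes per bin), for EC20 and EC50 against CTdisp and for EC50 minus EC20. With the scaling used here, the EC20 curve is centred near 0, with a median of 0.02, while the curves of EC50 and of the difference have medians of 0.18.

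At EC50, 1330 probes (5.74%) were DEGs. Of these, 1233 (5.32%) were over-expressed and 97 (0.418%) under-expressed, so that the over-expressed share was 92.7%. The changes of most of them were small, with a median log2 fold change of 0.76 among the over-expressed and -1.06 among the under-expressed DEGs. Of the 1330, 338 changed by more than 2-fold, namely 282 upwards and 56 downwards. Arrays of EC50 and CTdisp did not overlap for 1199 of the over-expressed DEGs and 92 of the under-expressed ones. Over all probes they did not overlap in 24% in the higher and 4.33% in the lower direction.

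As scaled here, the whole distribution lay higher at EC50, with a median log2 fold change of 0.18 over all probes. This median and the over-expressed share depended on how the arrays were scaled to each other. SVCD normalization, which was used here, scales groups by probes found not to vary. MedianCD normalization, the same with medians, gave 3410 DEGs of which 97.4% were over-expressed. Median normalization, which sets the median of all probes equal, gave 211 with 55.9% over-expressed, and Quantile normalization gave 174 with 43.1%. Scaling to the 75th percentile gave 158 with 33.5%, and scaling to spike-in RNA gave 222 with 90.5%. After spike-in scaling the median over all probes was 0.14 at EC50, against 0.17 at EC20. At EC50 it was 0.33 after MedianCD and 0.05, 0.03 and -0.03 after Median, Quantile and 75th percentile scaling. With SVCD after a normexp background correction there were 108 DEGs, 4.63% of them over-expressed, and the median over all probes was -0.14. Calls that were the same in sign after SVCD, MedianCD, Median, Quantile and 75th percentile scaling numbered 114, of which 53 were over-expressed and 61 under-expressed. The majority of over-expressed DEGs at EC50 was thus found after SVCD, MedianCD, Median and spike-in scaling and not after Quantile or 75th percentile scaling or normexp.

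Single arrays moved the EC50 count as well. It was 53 without EC50 replicate 1, 3656 without replicate 2 and 130 without replicate 3, and 282, 151 and 3037 without CTdisp replicates 1, 2 and 3. In all 6 of these fits at least 67.7% of the DEGs were over-expressed, and 29 DEGs (18 over- and 11 under-expressed) were called in every one. With slide or scan day as a fixed block the counts were 1778 and 2316, of which 88.1% and 91.1% were over-expressed. When only EC50 and CTdisp were fitted, so that the spread came from 6 arrays, 2 DEGs were left, both under-expressed, and the same fit of EC20 left 3. The t-test named in the methods gave 4484 probes at an unadjusted 5% and 0 after Benjamini-Hochberg adjustment at EC50, and 3043 and 1 at EC20.

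**Figure D2:**
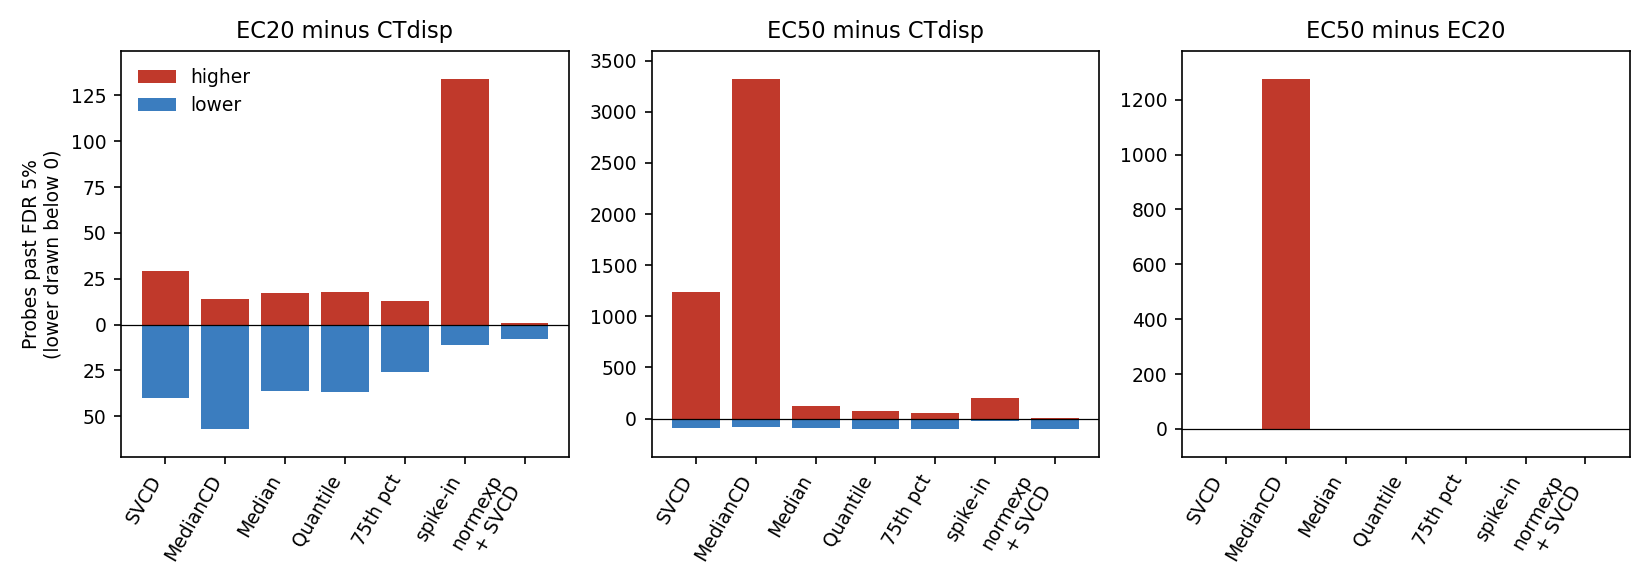
Number of probes past a false discovery rate of 5% (y axis, over-expressed above 0 and under-expressed below) for EC20 against CTdisp, EC50 against CTdisp and EC50 minus EC20, after 7 ways of scaling or background correction (x axis). At EC50 the count runs from 108 after normexp to 3410 after MedianCD, and EC50 minus EC20 has calls after MedianCD alone, 1277.

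The over-expressed DEGs with the largest change at EC50 were CUST_27080_PI427420766_b (read GYUW2K402FTC05) and CUST_43704_PI427420766_b (read GYUW2K402JGWRU). The first had 6.95, 6.98 and 6.74 in CTdisp, 9.26, 10.27 and 9.65 at EC20, and 10.62, 9.90 and 11.38 at EC50. The second had 14.43, 10.59 and 9.66 in CTdisp, 14.88, 14.64 and 14.02 at EC20, and 15.04, 14.78 and 15.14 at EC50. In the first the control arrays lay close together, whereas in the second CTdisp replicate 1 was nearly as bright as the treated arrays and the other controls were far below. The log2 fold changes at EC50 were 3.74 (standard error 0.67, FDR = 0.0018) and 3.42 (standard error 0.995, FDR = 0.0333). Set against the un-spiked control at 7 d in place of CTdisp, CUST_43704_PI427420766_b had a log2 fold change of 0.12 (FDR = 0.959), and its difference was 0.48 within the first scan day and 4.54 within the later one. The call was also lost after Median (FDR = 0.098), Quantile, 75th percentile and spike-in scaling, after normexp, with slide as a fixed block, with no filter, in the groups alone, and without CTdisp replicate 2 or 3 or EC50 replicate 1 or 3.

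The under-expressed DEGs with the largest change at EC50 were CUST_31050_PI427420766_b, described at EC20 above, and CUST_18145_PI427420766_b (contig12921). CUST_31050_PI427420766_b had 8.73, 5.71 and 5.77 at EC50, which is a log2 fold change of -6.80 (standard error 0.83, FDR = 5.42e-06) or a 112-fold decrease. This was the lowest FDR and the largest size of all probes at EC50. CUST_18145_PI427420766_b had 9.32, 10.55 and 10.50 in CTdisp, 7.54, 8.14 and 6.54 at EC20, and 6.75, 6.95 and 7.20 at EC50. Its log2 fold change was -3.15 at EC50 (standard error 0.58, FDR = 0.002) and -2.71 at EC20 (FDR = 0.0235), where the difference within the first scan day was -1.78. No treated array of either probe reached a control array, which the rule for named probes again required.

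**Figure D3:**
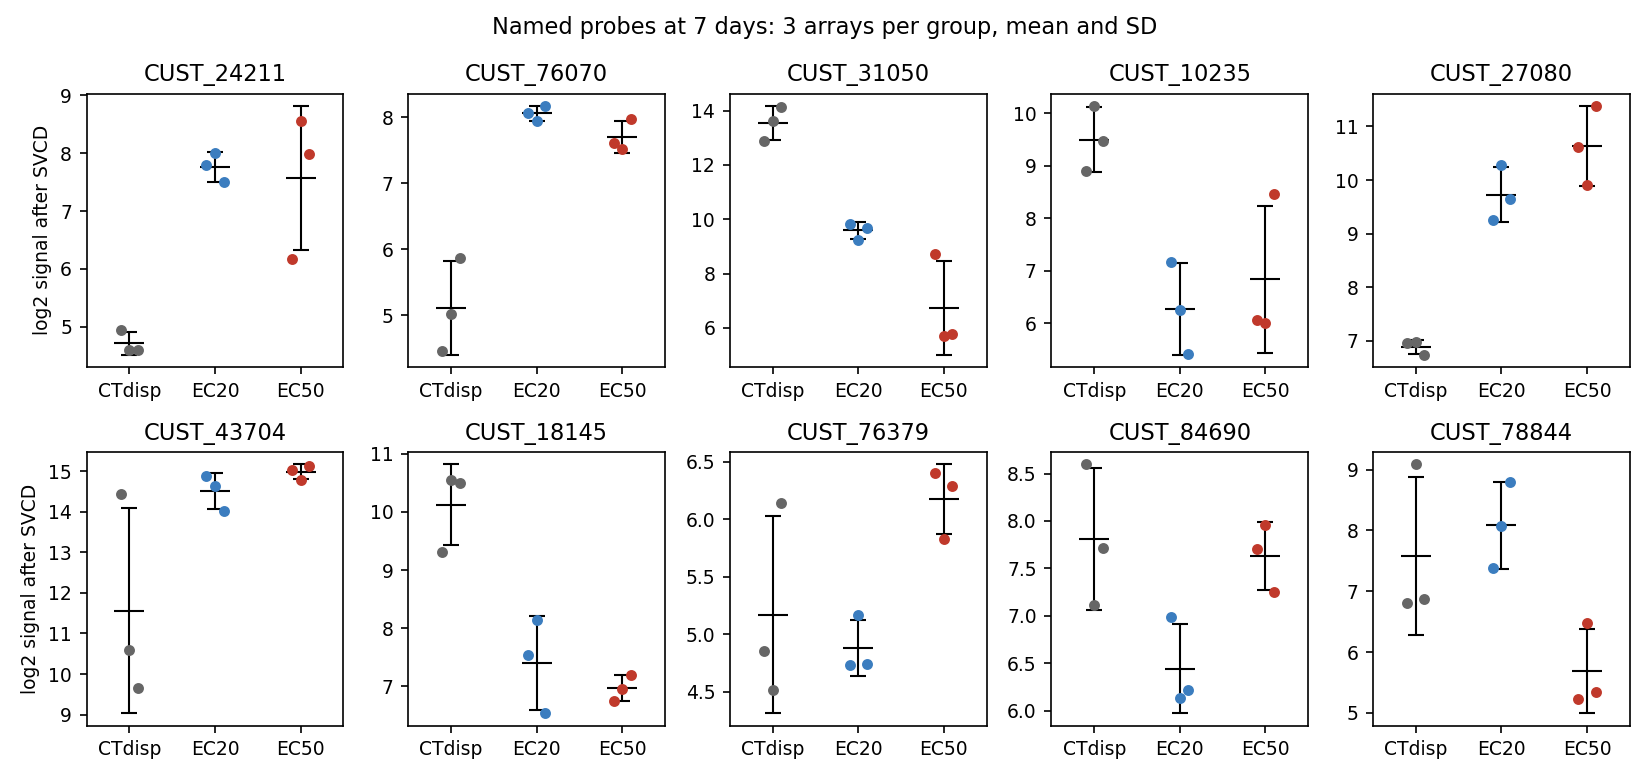
Log2 signal after SVCD normalization (y axis, scaled per panel) of the 10 named probes in the 3 arrays of CTdisp, EC20 and EC50 at 7 d (x axis), with the mean and the standard deviation of 3 arrays. CUST_31050_PI427420766_b steps down from a mean of 13.54 in CTdisp to 9.59 at EC20 and 6.74 at EC50, and CUST_43704_PI427420766_b shows 1 bright control array.

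Array by array, the DEG lists were separated from the controls in each of the 6 treated arrays. The values here are medians over the probes of a list, relative to the CTdisp mean of each probe. The 1233 probes over-expressed at EC50 lay at 0.92, 0.57 and 0.78 in EC50 replicates 1, 2 and 3, and at 0.54, 0.42 and 0.38 in the EC20 replicates. The 97 under-expressed probes lay at -1.30, -0.90 and -0.99 at EC50 and at -1.04, -0.95 and -0.84 at EC20. EC50 replicate 2 was thus the weakest of the EC50 arrays in both lists. The 29 probes over-expressed at EC20 lay at 1.30, 1.01 and 0.86 in the EC20 replicates and at 1.34, 0.95 and 1.16 in the EC50 ones. The 40 under-expressed at EC20 lay at -1.27, -1.17 and -1.13 at EC20 and at -1.08, -0.70 and -0.92 at EC50. Since these arrays chose the lists, the values are a description. Over all probes the medians were 0.17, 0.18 and 0.18 in the EC50 arrays and between -0.01 and 0.04 in the 6 others.

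**Figure D4:**
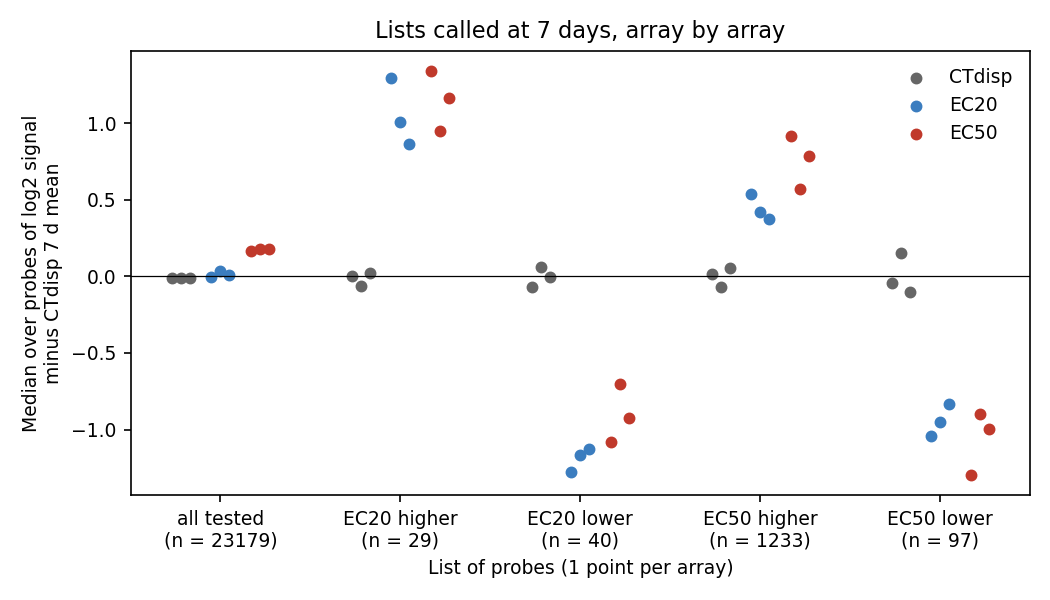
Median over the probes of each list (y axis, log2 signal minus the CTdisp mean of the probe) in each array, for all 23179 tested probes and for the probes over- or under-expressed at EC20 or EC50 (x axis). The EC50 arrays lie near 0.18 over all probes, and the treated arrays of each list lie on 1 side of the control arrays.

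Within a scan day or slide the lists kept their sign. On the first scan day, with 1 control array, all 29 over- and 40 under-expressed DEGs of EC20 differed in the direction of their call at EC20, as did all 1233 and 97 DEGs of EC50 at EC50. On the later day, with another control array, the same counts were found. Medians of the 1233 probes were 0.72 on the first and 0.84 on the later day. Over all probes the days, which share no array, were less alike. At EC20 Pearson's r between their differences was 0.23, with one sign in 59.5% of probes. At EC50 it was 0.45, with one sign in 73.5%. On the slide that held EC50 replicate 2 and CTdisp replicate 1, 1231 of the 1233 and all 97 had the sign of their call, and on the slide of EC20 replicate 3 and CTdisp replicate 2 all 29 and all 40 had. These control arrays were also part of the test that chose the probes. Arrays of the groups did not overlap in all 29 and 40 DEGs of EC20 and in 1199 and 92 of EC50. For these probes the sign within a day or slide was fixed in advance, so nothing is read from the counts.

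Probes over-expressed at EC50 were found over the whole range of brightness, with more in the brighter part. When the tested probes were cut into 4 bins of equal size by their CTdisp level, from dim to bright, 105, 282, 446 and 400 probes were over-expressed at EC50, which is 1.81%, 4.87%, 7.70% and 6.90% of each bin. Among those under-expressed the counts were 4, 32, 43 and 18. Over all probes the median log2 fold change at EC50 was 0.14, 0.12, 0.20 and 0.23 in these bins, and at EC20 it was 0.11, 0.03, 0.00 and -0.04. The CTdisp arrays that set the bins also enter these fold changes, which favours higher values in dim bins and lower ones in bright bins. The share of probes designed on contigs was 46.1% of the probes over-expressed at EC50, 50.5% of those under-expressed and 48.2% of all tested.

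The next question was how far the doses had DEGs in common. EC20 and EC50 were set against the same 3 CTdisp arrays, so that deviations of these arrays enter both fold changes and agreement between the doses is no independent result. There were 54 probes called at both doses, of which 28 were over-expressed and 26 under-expressed at both and none had opposite signs. They made up 78.3% of the EC20 DEGs and 4.06% of the EC50 DEGs. In the over-expressed direction they were 96.6% of the EC20 and 2.27% of the EC50 calls, and in the under-expressed direction 65.0% and 26.8%. Of the 15 probes called at EC20 only, 14 were under-expressed, and their FDR at EC50 lay between 0.0507 and 0.628. The count of 54 was 7, 20 and 25 without EC20 replicates 1, 2 and 3, 22, 64 and 28 without EC50 replicates 1, 2 and 3, and 28, 0 and 53 without CTdisp replicates 1, 2 and 3. The split moved with them: 0 of 7 were over-expressed without EC20 replicate 1, 14 of 20 and 19 of 25 without EC20 replicates 2 and 3, 3 of 28 without CTdisp replicate 1 and 46 of 53 without CTdisp replicate 3. After spike-in scaling 95 of 106 were over-expressed.

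Of the shared DEGs none differed between the doses past the test. The median log2 fold change of the 28 over-expressed probes was 1.06 at EC20 and 1.16 at EC50, and that of the 26 under-expressed was -1.36 and -1.26. In 22 of the 28 and in 10 of the 26 the change was larger at EC50. Over all probes, as scaled here, EC50 minus EC20 was above 0 in 75.7%, with a median of 0.18. Such a shift favours larger over-expressed and smaller under-expressed changes at EC50, so no dose response is read from these counts. The 1233 probes over-expressed at EC50 had a median of 0.76 there and of 0.46 at EC20, with quartiles of 0.26 and 0.71 at EC20. The 97 under-expressed at EC50 had medians of -1.06 at EC50 and -0.94 at EC20.

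By the rule for named probes, CUST_24211_PI427420766_b and CUST_27080_PI427420766_b had the largest changes among probes over-expressed at both doses, and CUST_31050_PI427420766_b and CUST_18145_PI427420766_b among those under-expressed. CUST_24211_PI427420766_b had 6.17, 8.56 and 7.98 at EC50, and its log2 fold change was 3.05 at EC20 and 2.85 at EC50 (FDR = 0.01). CUST_27080_PI427420766_b had 2.83 at EC20 (FDR = 0.0427) and 3.74 at EC50. The EC50 replicate 1 array of CUST_24211_PI427420766_b lay below all EC20 arrays but above all control arrays, the latter as the rule required.

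Of the 54 probes, 24 were called with one sign at both doses after SVCD, MedianCD, Median, Quantile and 75th percentile scaling alike, a set of settings put together after the data had been seen. They were 9 over-expressed and 15 under-expressed probes. All 9 had log2 fold changes of at least 0.77 at EC20, with a median of 1.33, and a median of 1.41 at EC50. The 15 had medians of -1.46 and -1.69. The set holds CUST_76070_PI427420766_b, CUST_31050_PI427420766_b, CUST_10235_PI427420766_b and CUST_18145_PI427420766_b, of which the first had 7.61, 7.51 and 7.98 at EC50 (log2 fold change 2.59, FDR = 0.00535). With spike-in scaling added as a further setting, 19 were left, 9 over- and 10 under-expressed.

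EC50 was then compared with EC20 directly, which leaves the control out. No probe of 23179 passed the test (0%), and the lowest FDR was 0.584. At an unadjusted p below 5% there were 1810 probes (7.81%), 1736 of them higher at EC50. The t-test named in the methods gave 0 after Benjamini-Hochberg adjustment and 3039 at an unadjusted 5%. The difference was above 0 in 75.7% of probes, with a median of 0.18 and quartiles of 0.01 and 0.31. The middle 90% of probes lay between -0.47 and 0.52. Arrays of EC50 lay above all arrays of EC20 in 18.8% of probes and below all of them in 3.17%.

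A p that misses the threshold does not show that the doses act alike. The half-width of the 95% confidence interval of a difference was 0.58 in the median probe, and for 69.3% of probes the interval lay within -1 and 1, which is a 2-fold difference either way. The count of 0 also rested on EC50 replicate 2 and on the scaling. Without that array there were 454 DEGs, 99.1% of them higher at EC50, and without EC50 replicate 1 there was 1. After MedianCD normalization there were 1277, 99.9% higher at EC50, with a median difference of 0.39, while Median, Quantile, 75th percentile and spike-in scaling gave 0 each, with medians of 0.05, 0.02, -0.05 and -0.02. Deviations of the EC20 and EC50 arrays of the same replicate number correlated at 0.25 to 0.46, and those of different numbers at -0.30 to 0.01. Whether the numbers pair these arrays was not tested. With the replicate number of these 6 arrays as a block the count was 0 again.

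The probes given next had the largest differences between EC50 and EC20 among those well above background and free of outlier flags on all 9 arrays and whose dose groups did not overlap. Over all probes the difference ranged from -2.85 to 1.95, with 41 probes above 1, and since none passed the test the values are a description. Probe CUST_76379_PI427420766_b (read GYUW2K401CY6ZS) had 4.73, 5.16 and 4.74 at EC20 and 6.40, 5.83 and 6.29 at EC50, a difference of 1.29 with a 95% interval from 0.24 to 2.35. Probe CUST_84690_PI427420766_b (read GYUW2K401CE7U3) had 6.99, 6.13 and 6.21 at EC20 and 7.70, 7.96 and 7.25 at EC50, a difference of 1.19 with an interval from 0.28 to 2.11. In the controls CUST_76379_PI427420766_b had 4.85, 4.51 and 6.14, and CUST_84690_PI427420766_b had 8.60, 7.11 and 7.72. The control arrays overlapped the EC50 arrays in both probes, and against CTdisp neither probe passed the test at either dose.

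In the other direction, CUST_31050_PI427420766_b was 2.85 lower at EC50 than at EC20 on the log2 scale (95% interval from -4.53 to -1.18, FDR = 0.584, unadjusted p from limma = 0.00132). After MedianCD normalization its FDR was 0.0498. Probe CUST_78844_PI427420766_b (read GYUW2K401ETD6Q) had 7.38, 8.07 and 8.80 at EC20 and 5.23, 6.47 and 5.34 at EC50, with 6.80, 9.08 and 6.87 in CTdisp. Its difference was -2.40 with an interval from -4.54 to -0.26. All EC50 arrays of both probes lay below all EC20 arrays, and for CUST_78844_PI427420766_b they lay below the controls too, where the log2 fold change of -1.90 did not pass the test (FDR = 0.31). The interval of each of these 4 probes leaves out 0, but they were picked for their size. With slide as a fixed block the differences shrank to 0.41 in CUST_76379_PI427420766_b, 0.42 in CUST_84690_PI427420766_b and -0.31 in CUST_78844_PI427420766_b, and with slide as a random block they were 0.86, 0.83 and -1.30. In CUST_31050_PI427420766_b they were -2.18 and -2.67. After normexp CUST_76379_PI427420766_b had 0.35 and CUST_84690_PI427420766_b had 0.65.

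By the CTdisp level, the median of EC50 minus EC20 was 0.06 in the dimmest of the 4 bins, 0.12 and 0.20 in the next ones and 0.25 in the brightest. Among the 1233 probes over-expressed at EC50 it was 0.30, and 374 of them had an unadjusted p below 5%. Among the 97 under-expressed it was -0.12, and 4 had. The EC50 arrays that chose these lists also enter the difference, so that a difference in the direction of the call was favoured by the choice and nothing is read from these counts.

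The effect at 7 d was also compared with that at 3 d, where CTdisp 3 d was the control, by the difference of the effects in the same model. At EC20 the effect changed with time in 99 probes (0.427%), 44 of them (0.19%) higher and 55 (0.237%) lower at 7 d. Of these 99, 7 were DEGs at 7 d, 52 at 3 d and 40 at neither time. At EC50 it changed in 1232 probes (5.32%), of which 1140 (4.92%) were higher and 92 (0.397%) lower at 7 d, so that 92.5% were higher. Of the 1232, 564 were DEGs at 7 d and 204 at 3 d, 18 of them at both times, and 482 were DEGs at neither. In 1117 of them the fold change was positive at 7 d and negative at 3 d, with a median of 0.61 at 7 d and -0.47 at 3 d over the 1232. The probes were chosen for a difference between the times, which favours opposite signs. All 99 at EC20 had them too, so no reversal with time is read from these signs. After Median normalization the counts were 61 at EC20 and 144 at EC50, and after spike-in scaling 22 and 65. The higher share at EC50 was then 73.6% and 93.8%, and it was 48.8% of 166 after 75th percentile scaling. Single arrays moved both counts. The count at EC20 was 36, 54 and 57 without EC20 7 d replicates 1, 2 and 3, 23 without CTdisp 7 d replicate 2, 155 and 321 without EC20 3 d replicates 2 and 3, and 394, 224 and 283 without CTdisp 3 d replicates 1, 2 and 3. The direction at EC20 turned with them, from 24 of 283 higher at 7 d without CTdisp 3 d replicate 3 to 206 of 224 without CTdisp 3 d replicate 2, and it was 237 of 321 without EC20 3 d replicate 3, 69.0% of 155 without EC20 3 d replicate 2 and 38 of 54 without EC20 7 d replicate 2. Without CTdisp 7 d replicate 3 73.7% of 137 were higher. The count at EC50 was 228, 2907 and 248 without EC50 7 d replicates 1, 2 and 3, and 331, 420 and 2364 without those of CTdisp 7 d. It was 3069, 418 and 170 without EC50 3 d replicates 1, 2 and 3, and 770, 3400 and 334 without those of CTdisp 3 d.

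The 7 d and 3 d comparisons share no array, though all arrays were normalized together. Of the 40 probes under-expressed at EC20 at 7 d, 26 had a negative fold change at EC20 at 3 d and 9 were under-expressed DEGs there, against 51.0% of all probes with a negative fold change and 0.893% under-expressed. Of the 97 under-expressed at EC50 at 7 d, 58 (59.8%) were negative at EC50 at 3 d, near the 54.0% of all probes, and 17 were under-expressed DEGs, against 1.32% of all probes. Of the 29 over-expressed at EC20 at 7 d, 19 were positive at EC20 at 3 d, against 49.0% of all probes, and 1 was an over-expressed DEG, against 0.557%. Of the 1233 probes over-expressed at EC50 at 7 d, 454 (36.8%) were positive at EC50 at 3 d, against 46.0% of all probes, while 16 were over-expressed and 18 under-expressed DEGs at 3 d. Of all probes 0.513% were over-expressed there.

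Among the named probes, the under-expressed ones were under-expressed at 3 d too. At 3 d CUST_31050_PI427420766_b had log2 fold changes of -4.28 at EC20 (FDR = 0.00413) and -7.51 at EC50 (FDR = 1.78e-07). CUST_10235_PI427420766_b had -3.34 and -4.27, and CUST_18145_PI427420766_b had -2.20 and -3.43, all past the test. For these 3 probes the difference between 7 d and 3 d was at most 1.61 in size and did not pass the test at either dose. CUST_76070_PI427420766_b had -0.55 and -0.36 at 3 d, and its effect differed between the times by 3.49 at EC20 (FDR = 0.028) and 2.94 at EC50 (FDR = 0.0212). CUST_27080_PI427420766_b was over-expressed at EC50 at 3 d as well, with 2.73 (FDR = 0.019). CUST_24211_PI427420766_b had 0.54 and -0.10 at 3 d.

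Last, the EC50 effect at 7 d was set against that of the other forms of silver at EC50 and 7 d, which had un-spiked soil as their control and share no array with the Ag NM300K groups. The effects differed in no probe (0%) from those of Ag-NPs PVP-Coated (hereafter PVP-coated particles), Ag-NPs Non-Coated (non-coated particles) or the salt AgNO3 by limma, with 889, 602 and 1198 probes at an unadjusted p below 5%. The half-width of the 95% interval of such a difference was 0.82 in the median probe, and differences smaller than this were not resolved there. Each form was given at its own EC50 and with another control, so material, amount of silver and dispersant cannot be told apart. CTdisp and un-spiked soil at 7 d differed in 0 probes, with 872 at an unadjusted p below 5%.

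The Ag NM300K lists had the same sign in these other groups for nearly all probes. All 29 probes over-expressed at EC20 were positive in the PVP-coated particles, the non-coated particles and AgNO3 at EC50, and 29, 20 and 2 of them were over-expressed DEGs there, against 5.48%, 1.04% and 0.069% of all probes. All 40 under-expressed at EC20 were negative in the 3 forms, and 36, 18 and 6 were under-expressed DEGs, against 2.05%, 0.371% and 0.0518% of all probes. Of the 1233 probes over-expressed at EC50, 1220, 1209 and 1128 were positive in the same order of forms, with median log2 fold changes of 0.60, 0.46 and 0.30. Fewer of the 1233 were over-expressed DEGs there, namely 566, 146 and 12. Over all probes the positive shares were 58.4%, 60.03% and 54.6%, with medians of 0.10, 0.09 and 0.03. Of the 97 under-expressed at EC50, 96, 95 and 94 were negative, against 41.6%, 39.97% and 45.4% of all probes, and 61, 29 and 7 were under-expressed DEGs. None of these probes was a DEG in the opposite direction. The other forms share the un-spiked control arrays with each other, so that their values are not independent of one another.

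**Figure D5:**
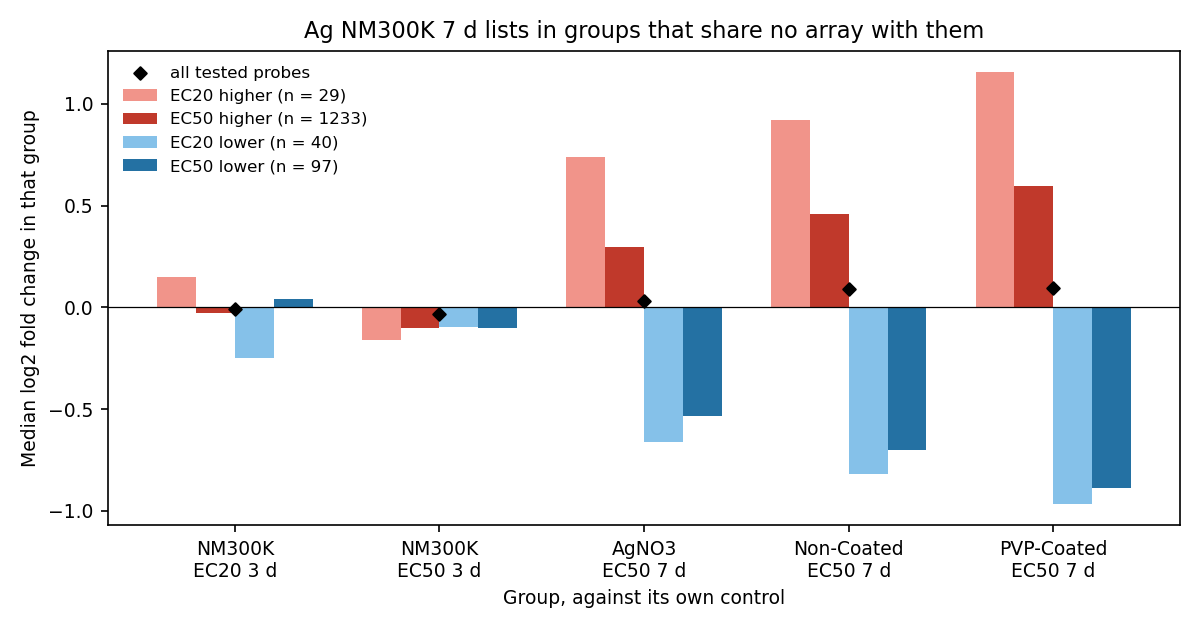
Median log2 fold change (y axis) of the probes over- or under-expressed by Ag NM300K at EC20 or EC50 and 7 d (bars) and of all tested probes (diamonds), in groups that share no array with them, each against its own control (x axis). In the 3 other forms of silver at 7 d the bars of over-expressed lists lie between 0.30 and 1.15 and those of under-expressed lists between -0.96 and -0.53, while at 3 d of Ag NM300K they lie between -0.25 and 0.15.

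Among the named probes, CUST_31050_PI427420766_b was under-expressed in all 3 other forms, with log2 fold changes of -8.88 in the PVP-coated particles (FDR = 2.19e-09), -7.85 in the non-coated ones (FDR = 9.61e-08) and -5.52 in AgNO3 (FDR = 0.000306). CUST_24211_PI427420766_b had 3.08 and 3.73 in the particles, both past the test, and 1.25 in AgNO3 (FDR = 0.739). CUST_43704_PI427420766_b had -0.03, -0.18 and -0.16 in the 3 forms, none of which passed the test. The EC50 effect of Ag NM300K on it was larger than theirs by 3.45 to 3.60 without passing the test, and CTdisp itself lay below un-spiked soil without passing the test (log2 difference -3.30, FDR = 0.993). The set called at both doses after 5 scalings alike, given above, held 9 over-expressed and 15 under-expressed probes. Its over-expressed probes had medians of 1.36, 1.22 and 0.85 in the PVP-coated particles, the non-coated particles and AgNO3. Its under-expressed probes had -1.75, -1.39 and -0.81. With spike-in scaling added, 9 over- and 10 under-expressed probes were left. After normexp, 8 probes were called at both doses, 0 of them over-expressed.

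Probes outside the filter were looked at by their detection flag, without a test. Of the 43750 gene probes, 162 were above background on all EC20 arrays and on no CTdisp array, and 47 the other way round. At EC50 these counts were 95 and 41. There were 19 probes detected on all 6 Ag NM300K arrays and on no CTdisp array, and 8 were detected on the 3 CTdisp arrays alone. By the flag for well above background these counts were 13 and 11. They were 82 and 17 at EC20 and 49 and 27 at EC50. The share of gene probes above background differed between arrays, from 74.3% to 86.7%. None of the 19 was well above background on all 6 treated arrays. Their log2 signals ranged from 0.79 to 4.13 with Ag NM300K and from 0.51 to 1.63 in CTdisp.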

How the data were processed

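Per the file headers and labels, the authors quantified each 1-colour (Cy3) array with Agilent Feature Extraction 10.7.3.1, which gave the deposited intensity per spot (background-corrected processed signal, median signal and local background) and flags. The deposited value table holds the same processed signals, rounded, and was not used. Log2 of the processed signal was analysed for the 23179 gene probes whose flag placed them significantly above background on each of the 60 arrays. In these, 308 spots with an outlier flag were set missing (24 on the 9 arrays). SVCD normalization, the study's method, was written anew, and its between-group step used 6587 no-variation probes. Differences were tested with limma 3.58.1 in R 4.3.3, fitting 20 group means to the 60 arrays jointly, two-sided, with Benjamini-Hochberg adjustment over all probes and a false discovery rate below 5%. An exact permutation test of 3 against 3 arrays cannot go below p = 0.1. With 3 arrays per group the precision is limited, and arrays of a slide were correlated (consensus correlation 0.354).

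Named probes were, per comparison, the 2 largest changes in each direction among probes past the test that were well above background and free of outlier flags on all 9 arrays and whose groups did not overlap. For EC50 minus EC20 the test was not required, and for both doses the smaller of the 2 changes counted. The experiment, rule and tests were chosen with earlier results of these data known. Gene lists could not be used without gene names. Deviations from the group mean in arrays of one replicate number correlated across probes at 0.25 to 0.46 between EC20 and EC50. With CTdisp these correlations ran from -0.13 to 0.46, and 3 of 6 were below 0. Arrays of different numbers ran from -0.47 to 0.40 over all pairs of groups, and from -0.30 to 0.01 between EC20 and EC50. EC20 and EC50 replicates 1 shared a scan day, as did replicates 3, so number and day cannot be told apart in them. The scripts were tested on simulated data. Alternatives were other scalings, background correction, filters, blocks, tests, controls and arrays left out. Normexp used the median spot intensity, since the mean is not in the files used.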

Additional observations from a re-analysis of the deposited data

Results flagged for a closer look

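The effect of Ag NM300K differed between 7 d and 3 d in 99 probes at EC20 and in 1232 at EC50, by a test of the difference of the effects in limma. The signal of probes outside the tested set was above background on all treated arrays and on no control array in 162 probes at EC20, in 95 at EC50 and in 19 at both doses. By the flag for well above background these counts were 82, 49 and 13, and the reverse held in 17, 27 and 11.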

How the results depend on the processing

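With MedianCD normalization, 3410 probes were called at EC50 and 1277 between the doses. After Median normalization, 211 were called at EC50, and the difference between 7 d and 3 d was called in 61 probes at EC20 and 144 at EC50. After 75th percentile scaling there were 39 calls at EC20, 158 at EC50 and 29 at both doses, and 166 time differences at EC50. After Quantile normalization there were 174 at EC50 and 176 and 212 time differences. Spike-in scaling gave 145 at EC20, 222 at EC50 and 106 at both, with 22 and 65 time differences. Normexp gave 9, 108 and 8, with 13 and 1 time differences. Most calls at EC50 were then lower after 75th percentile, Quantile and normexp settings, and so were the time differences at EC50 after 75th percentile scaling and normexp.

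With probes well above background on all 60 arrays there were 244 calls at EC20 and 220 at both doses, with 205 and 1942 time differences. With no filter there were 14, 554 and 11 at EC20, EC50 and both, with 34 and 436. Slide as a fixed block gave 478 at EC20 and 278 at both, with 291 and 2057, and as a random block 604, 2725 and 482, with 617 and 2825. Scan day gave 266, 2316 and 228, with 191 at EC20 for time. The groups alone gave 3, 2 and 1 (both EC50 calls were lower), with 0 and 0. The methods' t-test gave 3043, 4484, 3039 between the doses and 1587 at both doses unadjusted, and 1, 0, 0 and 0 adjusted. The causes were not tested.

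Leaving out 1 array, counts ran from 0 to 54 at EC20, 53 to 3656 at EC50, 0 to 454 between the doses, 0 to 64 at both, and 23 to 394 and 170 to 3400 for time at EC20 and EC50. Against the PVP-coated particles and AgNO3 they ran from 0 to 1, and against the non-coated particles from 0 to 0. Probes detected only with EC20, EC50 or both numbered 276 to 500, 175 to 675 and 22 to 136. Leaving out an array relaxes the rule for these probes, so the counts could not fall below 162, 95 and 19.

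With the replicate block the counts were 71, 1376, 0 between the doses and 54 at both, and in no comparison did it move a count by over 1.5 times. Over 381 alternative values of the named probes, 78 lost a call, 5 gained one and 0 changed sign. Of the 5, all for EC50 minus EC20, only CUST_31050_PI427420766_b after MedianCD normalization passed a false discovery rate (FDR = 0.0498). The others came from the t-test read at an unadjusted 5%, a looser threshold. Of the 381, 14 were smaller in size by over 1.5 times, mostly with slide as a block or normexp. The 3 arrays a group, the slides and the scaling limit what can be told apart.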
